A study of Mus musculus with 47 samples.

Results

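Cytosolic ribosomal proteins were read from the medial prefrontal cortex (PFC) of mice as the genes whose symbol starts with Rpl or Rps and a digit, with Rplp0, Rplp2 and Rpsa, and without Rps6 kinases and pseudogene symbols ending in -ps. Probesets with a single gene symbol were used and the brightest stood for its gene, which gave 50 genes of 18193 named on the array. Of these, 21 encode proteins of the small subunit and 22 proteins of the large subunit, so that 43 of 77 listed subunit genes were measured. The other members were 6 paralogs (Rpl3l, Rpl7l1, Rpl22l1, Rpl39l, Rps4l and Rps27l) and Rps19bp1, which encodes a protein that binds Rps19 and is no part of the ribosome. RefSeq lists Rps4l as a transcribed pseudogene, and it was kept because its symbol fits.

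The mice were adult male C57BL/6J. CIE mice, exposed to chronic intermittent ethanol, inhaled ethanol vapor (10 to 13 mg/l air) during 16 hours of each of 4 days, and 4 such cycles were separated by 7 days of abstinence each. An ethanol dose of 1.6 g/kg started each cycle. Ctrl mice inhaled air and were given saline. Pyrazole, an inhibitor of alcohol dehydrogenase, was given at 1 mmol/kg to CIE and Ctrl mice alike, so the inhibitor is part of every group. PFC was collected 0h, 8h, 72h or 7d after the final session from 5 CIE mice at 8h and from 6 mice in each of the other CIE and Ctrl groups. Each of the 47 Affymetrix Mouse430_2 arrays carried RNA of a single mouse, and each time had its own Ctrl mice. Values are log2 signals, effects are CIE minus Ctrl on that scale, and calls use the limma test at FDR ≤ 0.01 over 45037 probesets. In whole tissue, fewer cells of a type and less RNA per cell cannot be told apart.

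The cytosolic ribosome translates the mRNAs made in the nucleus, among them those of most mitochondrial proteins. Its small subunit decodes the mRNA, and its large subunit joins amino acids and lets the growing chain leave through a tunnel. Vertebrate mRNAs of ribosomal proteins start with a C followed by a run of C and T (U in the RNA), through which mTOR signaling and the RNA binding protein Larp1 control how much of them is translated. A change in translation by this route need not change the amount of mRNA, which is what an array reads.

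The start regions are shown first, for Rpl27a and for the genes with a called ethanol effect below whose start the promoter table held, and for a bright member that was not called (Rpl38). Each holds 20 bases before the annotated start and the first 20 of the transcript, in the direction of the gene, from RefSeq promoters of build GRCm38.p6. Capitals mark the longest run that opens with a C and goes on with 5 or more C or T, its first base no more than 25 bases from the start. Among runs of equal length, as in Rpl39, the one nearest to the start is marked, and Rpl41 has none.
Rpl39: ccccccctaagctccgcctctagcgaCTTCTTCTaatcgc
Rps27: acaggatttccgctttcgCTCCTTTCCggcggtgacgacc
Rpl27a: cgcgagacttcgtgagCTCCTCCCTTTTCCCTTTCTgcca
Rpl41: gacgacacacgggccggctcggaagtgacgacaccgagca
Rps18: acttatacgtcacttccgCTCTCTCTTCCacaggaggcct
Rps10: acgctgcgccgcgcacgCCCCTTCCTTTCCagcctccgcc
Rpl35: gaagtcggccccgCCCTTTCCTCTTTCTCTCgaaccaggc
Rpl38: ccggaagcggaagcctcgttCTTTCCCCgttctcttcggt
These lie at chrX:37085203-37085242 (minus strand, Rpl39), chr3:90213629-90213668 (minus, Rps27), chr7:109519175-109519214 (plus, Rpl27a), chr10:128549149-128549188 (minus, Rpl41), chr17:33955646-33955685 (minus, Rps18), chr17:27635225-27635264 (minus, Rps10), chr2:39005112-39005151 (minus, Rpl35) and chr11:114668560-114668599 (plus, Rpl38). The run is 8 bases long in Rpl39 and Rpl38, 9 in Rps27, 11 in Rps18, 13 in Rps10, 18 in Rpl35 and 20 in Rpl27a.

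RefSeq gave 52 start sites for 44 of the 50 members. A run of this kind was found at 33 of the 52 (63.5%), against 36.3% of all 32851 start sites. In the window of 250 bases before and 50 after the start, the letters CCGGAAG, a core that ETS family factors recognize, were present on either strand in 40.4% of member starts and 8.86% of all starts. GGGCGG, the GC box, was present in 53.8% and 35.7%, GCCATNTT, the core of the YY1 site, in 15.4% and 6.05%, and TATAAA in 11.5% and 13.6%. These letters describe the windows, and no binding was measured.

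The signals of the 50 members spanned 3.84 (Rps16) to 14.23 (Rps29) with a median of 12.92, beside a median of 6.41 over all probesets. Signals of different probesets do not rank transcripts, because probes differ in how they bind. The signal splits the members into a bright and a dim set: 35 lay above 12, as 3.00% of all probesets did, and 15 lay at 12 or below. The brightest were Rps29 (14.23), Rpl38 (13.96), Rpl41 (13.93), which encodes one of the shortest peptides known, and Rpl37a (13.92). The dimmest were Rps16 (3.84), the paralogs Rpl3l (4.27), known from muscle, and Rpl39l (4.33), known from testis, and Rpl39 (6.60). The dim set held 9 genes of true subunit proteins, and each of the 9 is also listed, with other symbols, by a probeset of signal above 12 that names no gene here. A low signal of these members therefore does not show a rare mRNA.

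Bright members varied little between mice of a group. The SD within groups had a median of 0.0727 in the 35 bright members, against 0.0889 in all probesets above 12, and of 0.153 in the dim members against 0.168 in all probesets at 12 or below. The highest signal of an array was 14.50 to 14.66, and whether signals near it are compressed was not tested. Rpl6, of the large subunit, had the smallest SD within groups (0.0307), and all 47 mice lay between 12.85 and 12.96. Rpl13a followed (SD 0.0373). Rpl37 (0.289), Rps4l (0.219) and Rpl27a (0.203), all dim, had the largest. Rpl37 spanned 9.03 to 10.68 over all mice, and its CIE minus Ctrl of 0.45 at 8h was not called (adjusted p = 0.072, limma). It was 0.13 within repeat group 1 (3 CIE and 3 Ctrl mice) and 0.96 within repeat group 2 (2 CIE and 3 Ctrl mice). Repeat group is a batch label of the study.

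The mean over the 50 members hardly separated CIE from Ctrl mice. It was 11.53 ± 0.04 in CIE and 11.54 ± 0.08 in Ctrl mice at 0h, 11.55 ± 0.04 and 11.53 ± 0.01 at 8h, 11.55 ± 0.05 and 11.54 ± 0.04 at 72h, and 11.54 ± 0.02 and 11.54 ± 0.03 at 7d (SD, n = 6, but 5 in CIE at 8h). The groups overlapped at every time.

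**Figure D1:**
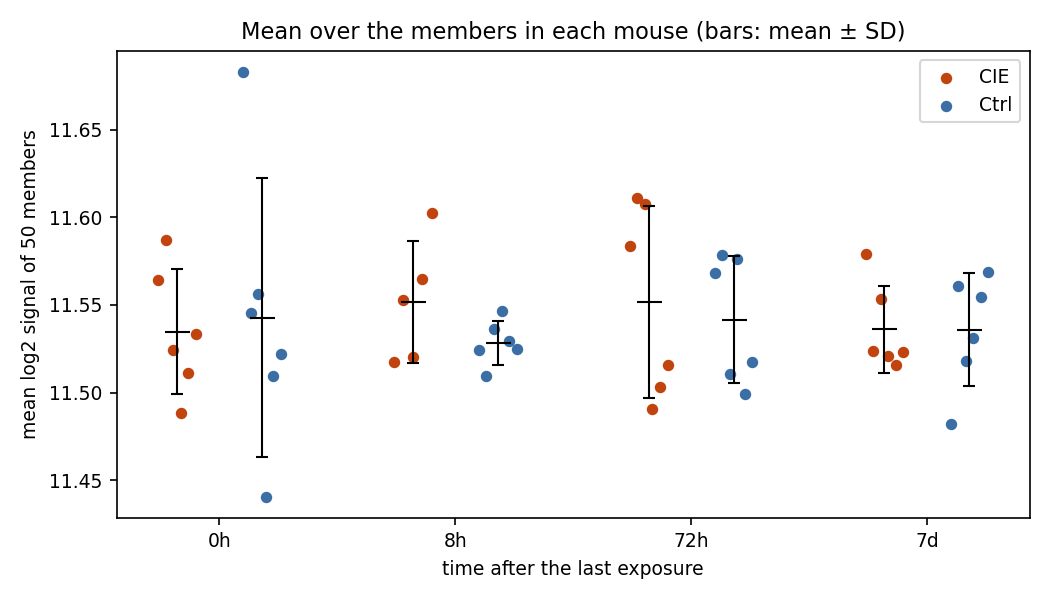
Mean log2 signal of the 50 members in each mouse (points) by time after the last exposure, with CIE (red) left of Ctrl (blue); bars give mean ± SD. The groups overlap at each time, and the widest group is Ctrl at 0h, from 11.44 to 11.68.

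At 0h, the end of ethanol exposure, few members differed between CIE and Ctrl mice. Rps27, a zinc finger protein of the small subunit, was called higher and Rpl39, a small protein of the tunnel exit, was called lower, and 48 members were not called. Those 2 of 50 stand beside 7.28% of all probesets called at 0h, 3.69% higher and 3.58% lower. The median effect over the members was -0.01 (within 0.01 of 0 over all probesets), and 24 of 50 were positive. At an unadjusted p of 0.05 or less stood 10 of 50 members, against 28.6% of all probesets.

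Rps27 was 8.01, 8.11 and 8.18 (lowest, median and highest) in CIE mice at 0h, against 7.68, 7.78 and 8.09 in Ctrl mice. All 6 CIE mice lay above the Ctrl mean, but the groups overlapped. The effect was 0.26 ± 0.06 (SE; adjusted p = 0.00472, limma). Rpl39 was 6.40, 6.41 and 6.49 in CIE mice, against 6.34, 6.66 and 7.02 in Ctrl mice. The CIE mice lay together at the low end of a wide Ctrl group, and the effect was -0.29 ± 0.08 (adjusted p = 0.00798, limma).

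Neither call at 0h held when single mice were left out. Rps27 lost its call without each of Ctrl mice 12, 48, 56 and 78 and CIE mice 5 and 17 in turn (adjusted p up to 0.0188), and Rpl39 kept its call only without Ctrl mouse 48 or 56 (adjusted p otherwise up to 0.0351). Markers of striatum, a region near the PFC, were higher on average in CIE mice at 0h for 10 of 10 genes, and 0 were called (limma; 6 at an unadjusted p of 0.05 or less). Their log2 summed level was 13.40, 13.90 and 14.28 in CIE mice 17, 5 and 11, while the other CIE mice (12.51 to 12.76) lay within the range of Ctrl mice (12.36 to 12.80). Ctrl mice of 7d reached 13.72. A model with a striatal term, the average of the 10 genes, called 0 members at 0h. Over all the other settings run, this term among them, the effect was 0.24 to 0.31 for Rps27. For Rpl39 it was -0.29 to -0.20. The part of striatal tissue in these effects cannot be read from the lost calls.

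The next smallest p at 0h belonged to Rpl12, a protein at the base of the ribosomal stalk, and Rpl22, an RNA binding protein of the large subunit. Rpl12 was 7.30, 7.48 and 7.60 in CIE mice and 7.39, 7.75 and 8.05 in Ctrl mice, an effect of -0.31 ± 0.09 that was not called (adjusted p = 0.0192, limma). Rpl22 was 12.80, 12.90 and 13.01 in CIE mice and 12.67, 12.74 and 12.86 in Ctrl mice, an effect of 0.15 ± 0.05 (adjusted p = 0.0351, limma). The effect of Rpl22 was the largest among the 35 bright members at 0h, but a dimmer probeset of the gene without a cross-hybridization suffix had -0.02 ± 0.07. At that time 31 of the 35 lay within 0.10 of 0.

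At 8h, during withdrawal, Rpl39 alone was called and it was higher in CIE mice. That is 1 of 50 members beside 3.39% of all probesets (2.28% higher, 1.11% lower). The median effect was -0.01 over the members and 0.01 over all probesets, 22 of 50 members were positive, and 15 of 50 had an unadjusted p of 0.05 or less, against 28.1% of all probesets.

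Rpl39 was 6.94, 7.02, 6.83, 6.82 and 6.83 in the 5 CIE mice, against 6.39, 6.42 and 6.53 (lowest, median and highest) in the 6 Ctrl mice. Every CIE mouse lay above every Ctrl mouse. The effect was 0.46 ± 0.08 (adjusted p = 6.76e-04, limma) with a 95% interval of 0.29 to 0.62. It was 0.42 within repeat group 1 (3 CIE and 3 Ctrl mice) and 0.52 within repeat group 2 (2 CIE and 3 Ctrl mice), the label that the study's batch adjustment used. The call held without any single mouse (adjusted p from 7.95e-04 to 0.00279), among them CIE mouse 15, whose array correlated least with the others (mean r = 0.967), and was lost with the arrays of repeat group 1 alone (adjusted p = 0.0180).

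Rpl27a, of the large subunit, was 7.77, 7.36, 7.20, 7.38 and 7.53 in CIE mice at 8h, against 6.66, 7.08 and 7.28 in Ctrl mice. The groups overlapped by a single CIE mouse, and the effect of 0.46 ± 0.12 was just outside the threshold (adjusted p = 0.0113, limma). With repeat group as a term it was called (adjusted p = 0.0062). Over the 12 other settings run, the effect was 0.27 to 0.48 and the adjusted p 0.00179 to 0.0861 (limma). Another probeset of Rpl27a (signal 4.58) had 0.08 ± 0.06 at 8h (adjusted p = 0.409, limma). Rps27 was 8.00, 8.04, 8.09, 8.23 and 8.13 in CIE mice, against 7.74, 7.88 and 7.98 in Ctrl mice. The groups did not overlap, and the effect of 0.22 ± 0.07 was not called (adjusted p = 0.0276, limma). Rpl8, a bright protein of the core of the large subunit, went the other way with 12.67, 12.63, 12.68, 12.68 and 12.73 in CIE mice, against 12.76, 12.82 and 12.85 in Ctrl mice, an effect of -0.13 ± 0.04 (adjusted p = 0.0313, limma). Rpl11, which also binds Mdm2, the ubiquitin ligase of p53, did not overlap either, with 12.85 to 13.03 in CIE and 13.04 to 13.13 in Ctrl mice (effect -0.11 ± 0.05, adjusted p = 0.156, limma). In all, 4 of 50 members had groups that did not overlap at 8h, beside 6.37% of all probesets.

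**Figure D2:**
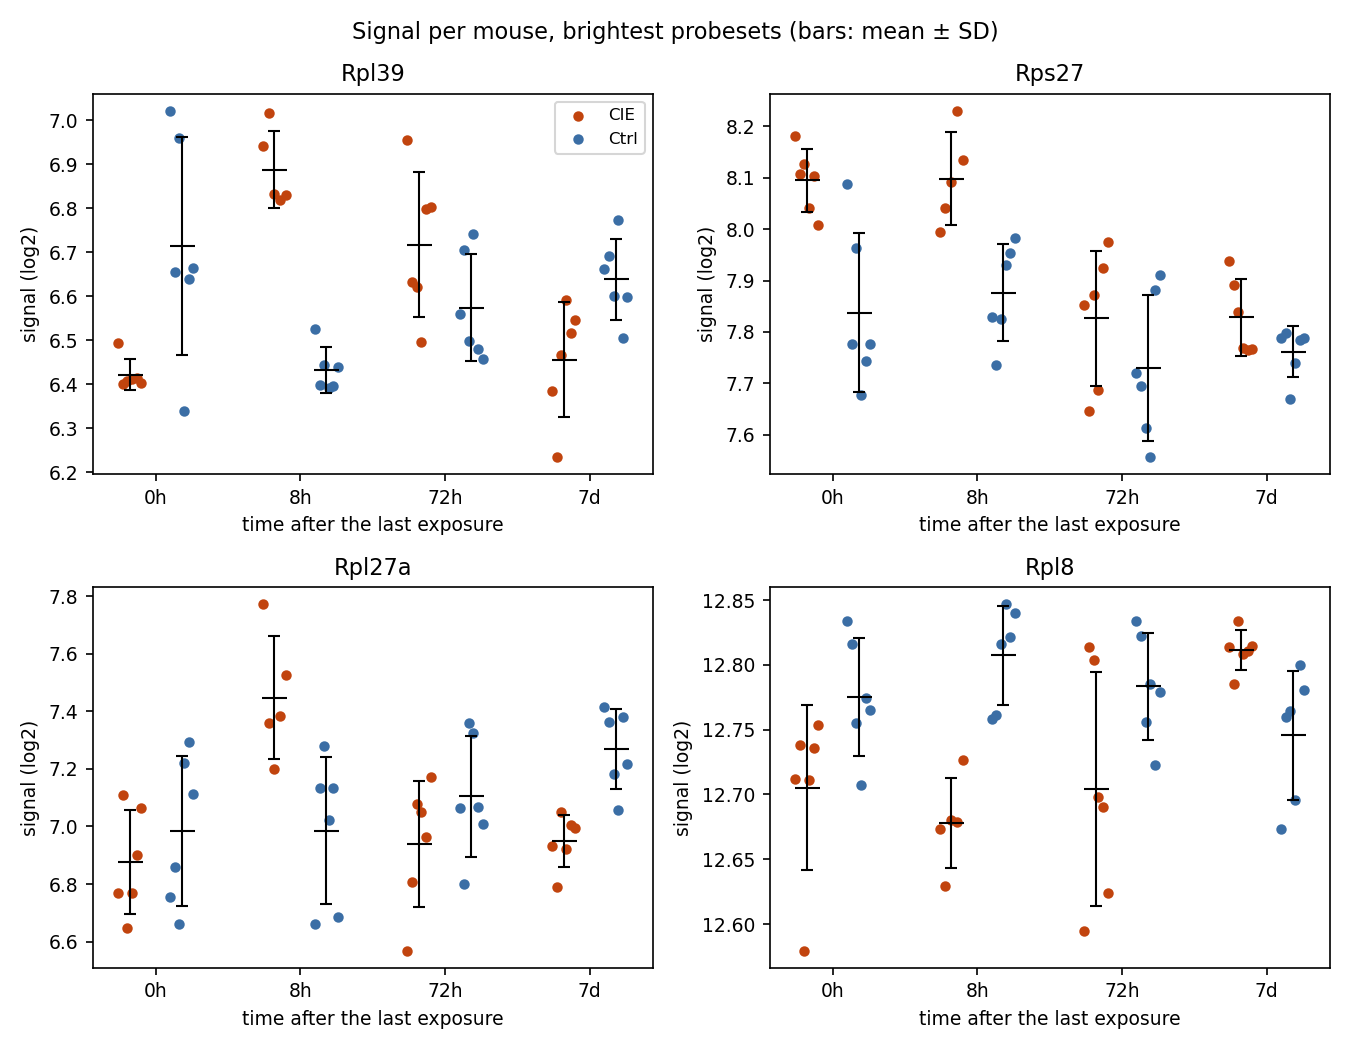
Log2 signal of Rpl39, Rps27, Rpl27a and Rpl8 in each mouse (points) by time after the last exposure, CIE (red) left of Ctrl (blue), with mean ± SD. At 8h the CIE mice of Rpl39 (6.82 to 7.02) lie above all Ctrl mice (6.39 to 6.53), while those of Rpl8 lie below.

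At 72h and 7d no member was called. The 0 of 50 calls (limma) stand beside 0.528% of all probesets at 72h and 0.948% at 7d, and 1 and 4 of 50 members had an unadjusted p of 0.05 or less, against 14.3% and 17.5% of all probesets. The median effect over the members was 0.02 at 72h and 0.02 at 7d, with 26 and 30 of 50 positive.

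The smallest p values at 72h were those of Rpl8 (-0.08 ± 0.04, adjusted p = 0.330), Rpl39 (0.14 ± 0.08, 0.415), Rpl39l (0.20 ± 0.11, 0.418) and Rpl14 (0.14 ± 0.09, 0.502), all from limma. At 7d Rpl27a was 6.79, 6.96 and 7.05 in CIE mice, against 7.06, 7.29 and 7.41 in Ctrl mice. The groups did not overlap and the direction was opposite to that at 8h, with an effect of -0.32 ± 0.12 that was not called (adjusted p = 0.112, limma). Another probeset of Rpl27a had 0.14 ± 0.06 at 7d, and the mean of both had -0.09. Rpl19 was 13.56, 13.63 and 13.69 in CIE mice and 13.47, 13.50 and 13.54 in Ctrl mice, also without overlap (0.13 ± 0.05, adjusted p = 0.174, limma). Members whose groups did not overlap were 0 at 0h, 0 at 72h and 2 of 50 at 7d, beside 7.01%, 2.08% and 3.35% of all probesets. Rpl39 (-0.18 ± 0.08) and Rpl27 (-0.12 ± 0.06) had the next smallest p at 7d and were not called.

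The bright members were measured most closely. The largest effect of any of the 35 at any time was 0.18 in size. It was that of Rps9 at 8h, -0.03 within repeat group 1 and -0.42 within repeat group 2. At 0h, 8h, 72h and 7d, 31, 27, 35 and 33 of the 35 lay within 0.10 of 0. The 95% interval lay wholly within 0.25 of 0 for 35, 34, 35 and 35 of the 35, so for these probesets larger effects lie outside the interval. No bright member was called at any time (limma), with 6, 9, 1 and 2 of 35 at an unadjusted p of 0.05 or less. Among all 1350 probesets above 12, 2.30% were called at 0h, 4.30% at 8h and 0 at 72h and 7d.

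**Figure D3:**
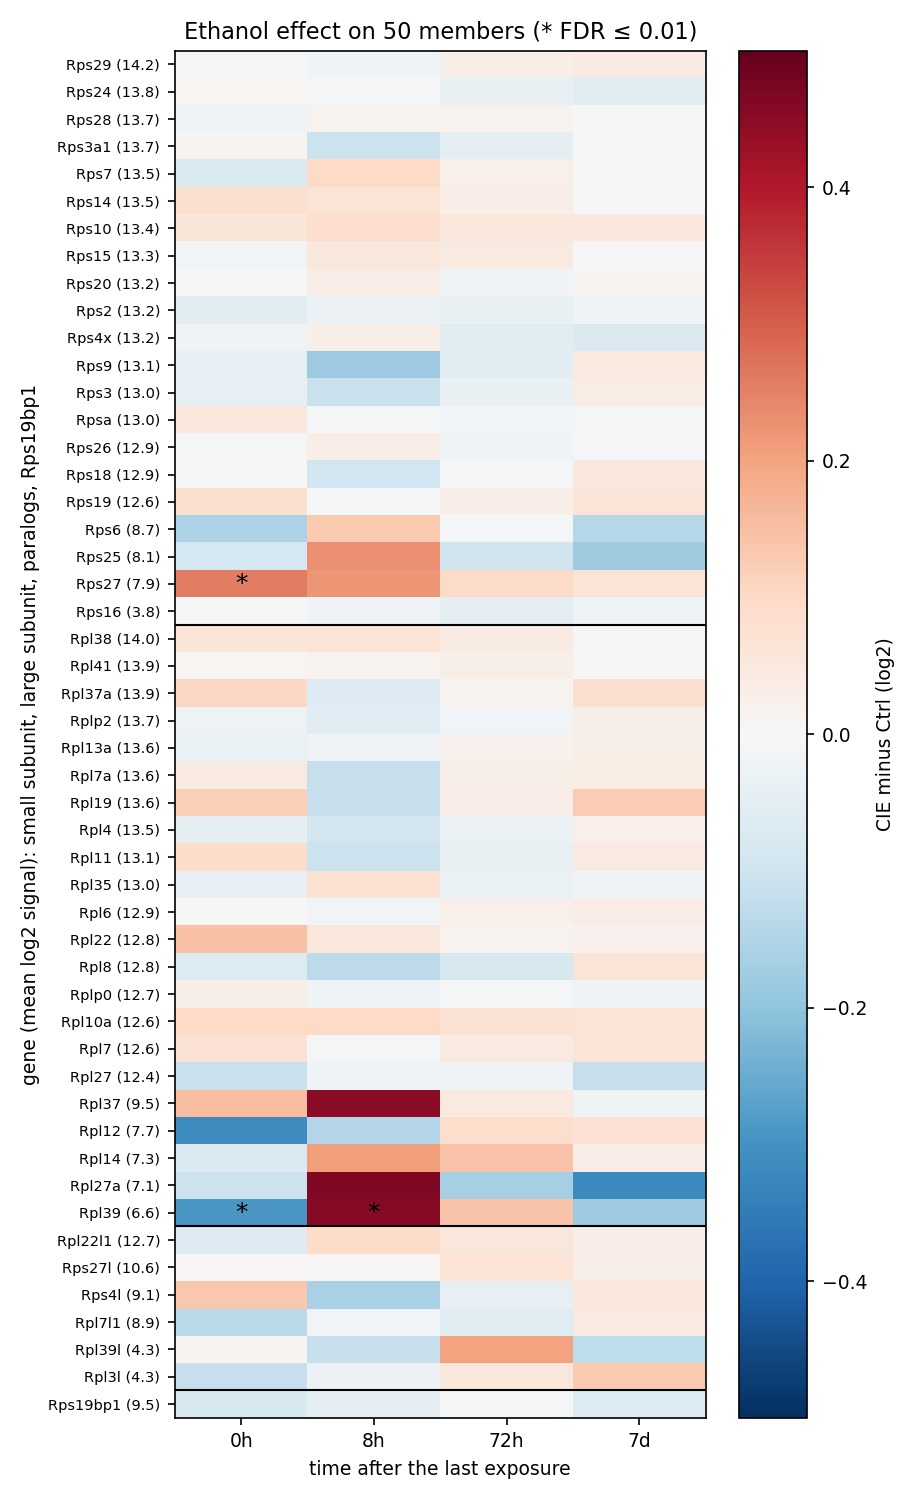
CIE minus Ctrl (log2, color) for each of the 50 members in rows, ordered by subunit and by mean signal (in brackets), at the 4 times in columns; a star marks FDR ≤ 0.01. The 3 starred cells are Rps27 and Rpl39 at 0h and Rpl39 at 8h, and the cells of bright members are pale throughout.

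The effect itself differed between times in the brightest probesets of Rpl39 and Rpl27a. The effect at 8h minus that at 0h was called for 1 of 50 members, Rpl39, at 0.75 ± 0.11 (adjusted p = 4.0e-05, limma; 3.41% of all probesets called). The effect at 8h minus that at 7d was called for 2, Rpl27a at 0.78 ± 0.17 (adjusted p = 0.00399) and Rpl39 at 0.64 ± 0.11 (adjusted p = 0.00105), beside 1.80% of all probesets. Both results use the same 8h mice. That of Rpl27a was lost without Ctrl mouse 79 of 8h (adjusted p = 0.0101), which leaves 1 call, and with repeat group 1 alone (0.0112). Another probeset of Rpl27a (signal 4.58) did not show it, with -0.06 ± 0.09 for 8h minus 7d (adjusted p = 0.689, limma). The effect at 7d minus that at 0h and that at 72h minus that at 0h were called for 0 members (limma; 4 and 2 of 50 at an unadjusted p of 0.05 or less), beside 0.273% and 1.80% of all probesets. The nearest was Rpl39 at 72h minus 0h (0.44 ± 0.11, adjusted p = 0.0127), which was called without Ctrl mouse 48 (0h), Ctrl mouse 44 (72h) or CIE mouse 35 (72h).

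Over the 4 effects together, the moderated F test called 3 of 50 members, Rpl39 (adjusted p = 3.23e-05), Rps27 (0.00172) and Rpl27a (0.00454), beside 13.6% of all probesets. Without Ctrl mouse 48 of 0h it called 5. Among the 4 Ctrl groups the F test called 0 of 50 (1.72% of all probesets), with 3 at an unadjusted p of 0.05 or less. Rpl39 still had the smallest p between Ctrl mice of 8h and 0h: its Ctrl mean was 6.43 ± 0.05 at 8h against 6.71 ± 0.25 at 0h (SD, n = 6 each), a difference of -0.28 ± 0.08 (SE; adjusted p = 0.0250, limma; 1.43% of all probesets called). Its CIE mean was 6.89 ± 0.09 at 8h and 6.42 ± 0.04 at 0h. The change of the ethanol effect of Rpl39 from 0h to 8h is computed from both pairs of means. The difference among the air mice was not called, and that among the ethanol mice was not tested. Repeat group 2 was present at 8h alone.

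Paralogs were measured beside their partner in 5 pairs, and 0 of 6 paralogs were called at any time (limma; 1 at 0h and 0 later at an unadjusted p of 0.05 or less). Rps27l, a p53 target gene, had effects between 0.01 and 0.07 over the 4 times, while those of Rps27 lay between 0.07 and 0.26. Rpl22l1 had -0.06, 0.09, 0.06 and 0.03 at 0h, 8h, 72h and 7d, against 0.15, 0.06, 0.02 and 0.02 in Rpl22. Rpl39l stayed near the floor of the array (4.04 to 4.76 in CIE mice and 4.26 to 4.40 in Ctrl mice at 0h) and had an effect of -0.11 ± 0.12 at 8h. Rpl7l1, with -0.14 ± 0.06 at 0h (adjusted p = 0.113), and Rps4l, with 0.13 ± 0.12, were not called either, and Rpl7 and Rps4x had 0.07 ± 0.04 and -0.02 at that time. Rps19bp1 had effects between -0.08 and -0.01.

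Of the 110 probesets that list a ribosomal protein with other symbols, 2 were called at 0h, 4 at 8h and 0 at 72h and 7d (limma), 1.82% and 3.64% at the first times. The bright one that lists Rpl39 had an effect of 0.06 ± 0.06 at 0h and 0.17 ± 0.06 at 8h (adjusted p = 0.563 and 0.0495). The one that lists Rps27 had 0.01 ± 0.08 and 0.27 ± 0.08 (adjusted p = 0.937 and 0.0325), and the one that lists Rpl27a had -0.04 ± 0.04 and -0.03 ± 0.04 (adjusted p = 0.530 and 0.717). At 8h those that list Rpl39 and Rps27 moved in the direction of the named probeset without being called. Probesets that list Rps6 were among the called ones. At 0h one of signal 4.71 was higher by 0.58 (adjusted p = 1.57e-04, limma). At 8h those of signal 9.06 and 9.84 were higher by 0.72 and 0.56 (adjusted p = 5.64e-04 and 1.54e-04, limma). The brightest that lists Rps6 (13.93) had 0.03 at 0h and -0.02 at 8h, not called. The other calls were -0.24 at 0h, and -0.53 and 0.26 at 8h. Which transcripts these probesets read was not tested.

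The other probesets of the members were called at some times. The members had 56 other probesets with a single symbol, 32 of them at a signal of 12 or less, and 7 of the 56, of 6 genes, were called at some time, as were 2 of the 50 brightest and 11.1% of all probesets. Calls among all 47 member probesets at 12 or less numbered 4 at 0h, 3 at 8h, 0 at 72h and 2 at 7d, beside 7.43%, 3.36%, 0.545% and 0.977% of all probesets at 12 or less. The brightest probeset of each of the 6 genes was not called at any time.

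A dim probeset of Rps20, a protein of the head of the small subunit, changed most (signal 5.87). It was 5.38, 5.62 and 5.94 in CIE mice at 0h, against 5.69, 6.02 and 6.54 in Ctrl mice, and 6.45, 6.26, 6.12, 6.32 and 6.01 in CIE mice at 8h, against 5.35, 5.51 and 5.90 in Ctrl mice. At 8h the groups did not overlap. The effect was -0.45 ± 0.13 at 0h (adjusted p = 0.0151, limma) and 0.65 ± 0.14 at 8h (adjusted p = 0.00267), and the difference between them was 1.10 ± 0.19 (adjusted p = 2.49e-04). The call at 8h was lost without CIE mouse 15 (0.0136) or Ctrl mouse 66 (0.0103). The brightest probeset of Rps20 (13.25) had effects of 0.00 and 0.03 at those times, and another (12.81) had 0.26 ± 0.07 at 8h (adjusted p = 0.00918), a call that held in only 3 of the 11 fits without a mouse. A further dim probeset (6.05) had 0.16 ± 0.12 at 0h and 0.37 ± 0.13 at 8h (adjusted p = 0.422 and 0.0534, limma). Its difference between these times was 0.21 ± 0.18 (adjusted p = 0.489).

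A dim probeset of Rpl41 (signal 6.73) was 7.03, 7.04, 7.09, 7.06 and 7.06 in CIE mice at 8h, against 6.39, 6.49 and 6.77 in Ctrl mice. The 5 CIE mice lay close together and above every Ctrl mouse. The effect was 0.53 ± 0.11 at 8h (adjusted p = 0.00149, limma) and -0.24 ± 0.10 at 0h (0.101), with a difference of 0.77 ± 0.15 (6.70e-04). It held without any single mouse (adjusted p up to 0.00536). The brightest probeset of Rpl41 (13.93) had an effect of 0.02 at 8h (adjusted p = 0.876). Another dim probeset of Rpl41 (7.80) did not follow the called one. It had 0.16 ± 0.07 at 0h and 0.01 ± 0.08 at 8h (adjusted p = 0.138 and 0.949, limma).

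Dim probesets of Rps18 and Rps10, both of the head of the small subunit, were called at 7d, where no brightest probeset was. That of Rps18 (5.57) was 5.20, 5.30 and 5.51 in CIE mice at 7d, against 5.80, 5.89 and 6.18 in Ctrl mice, with no overlap. The effect was -0.61 ± 0.10 (adjusted p = 3.05e-04, limma), and at 8h it was 0.36 ± 0.10 (0.0211), also without overlap. That of Rps10 (5.60) was 5.66, 5.89 and 5.95 in CIE mice at 7d, against 5.10, 5.42 and 5.57 in Ctrl mice, also with no overlap, an effect of 0.46 ± 0.09 (0.00214). It was higher at 0h too, by 0.41 ± 0.09 (0.00140), and had -0.15 ± 0.09 at 8h (0.303). Both calls at 7d held without any single mouse (adjusted p up to 0.00170 for Rps18 and 0.00805 for Rps10). The brightest probesets had 0.05 at 7d in either gene. Other dim probesets of Rps18 had 0.19 ± 0.10 (signal 3.95) and -0.11 ± 0.07 (signal 4.24) at 7d. At 8h they had -0.22 ± 0.10 and -0.19 ± 0.07, against the direction of the called probeset at that time. They were not called at either time (limma).

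The remaining calls were weaker. A dim probeset of Rpl35, a protein near the tunnel exit (4.68), was 4.21, 4.43 and 4.66 in CIE mice at 0h, against 4.48, 4.89 and 5.11 in Ctrl mice (-0.39 ± 0.10, adjusted p = 0.00680, limma), a call that held in 4 of 12 fits without a mouse. A bright probeset of Rps14 (13.41) was 13.39, 13.50 and 13.54 against 13.24, 13.34 and 13.40 (0.15 ± 0.04, adjusted p = 0.00787), a call that also held in 4 of 12. Of the 6 probesets at 12 or less called at 0h or 8h, 4 had a negative effect at 0h and a positive one at 8h (Rpl35, Rpl39, Rpl41 and Rps20). Rps10 ran the other way, and Rps27 was positive at both. These 6 were picked by calls at the same times, and how often all probesets show such signs was not counted. Between Ctrl mice, 8h minus 0h was -0.50 (Rps20), -0.29 (Rpl35), -0.28 (Rpl39), -0.14 (Rpl41), 0.04 (Rps27) and 0.32 (Rps10). None of these was called (limma, smallest adjusted p = 0.0182).

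**Figure D4:**
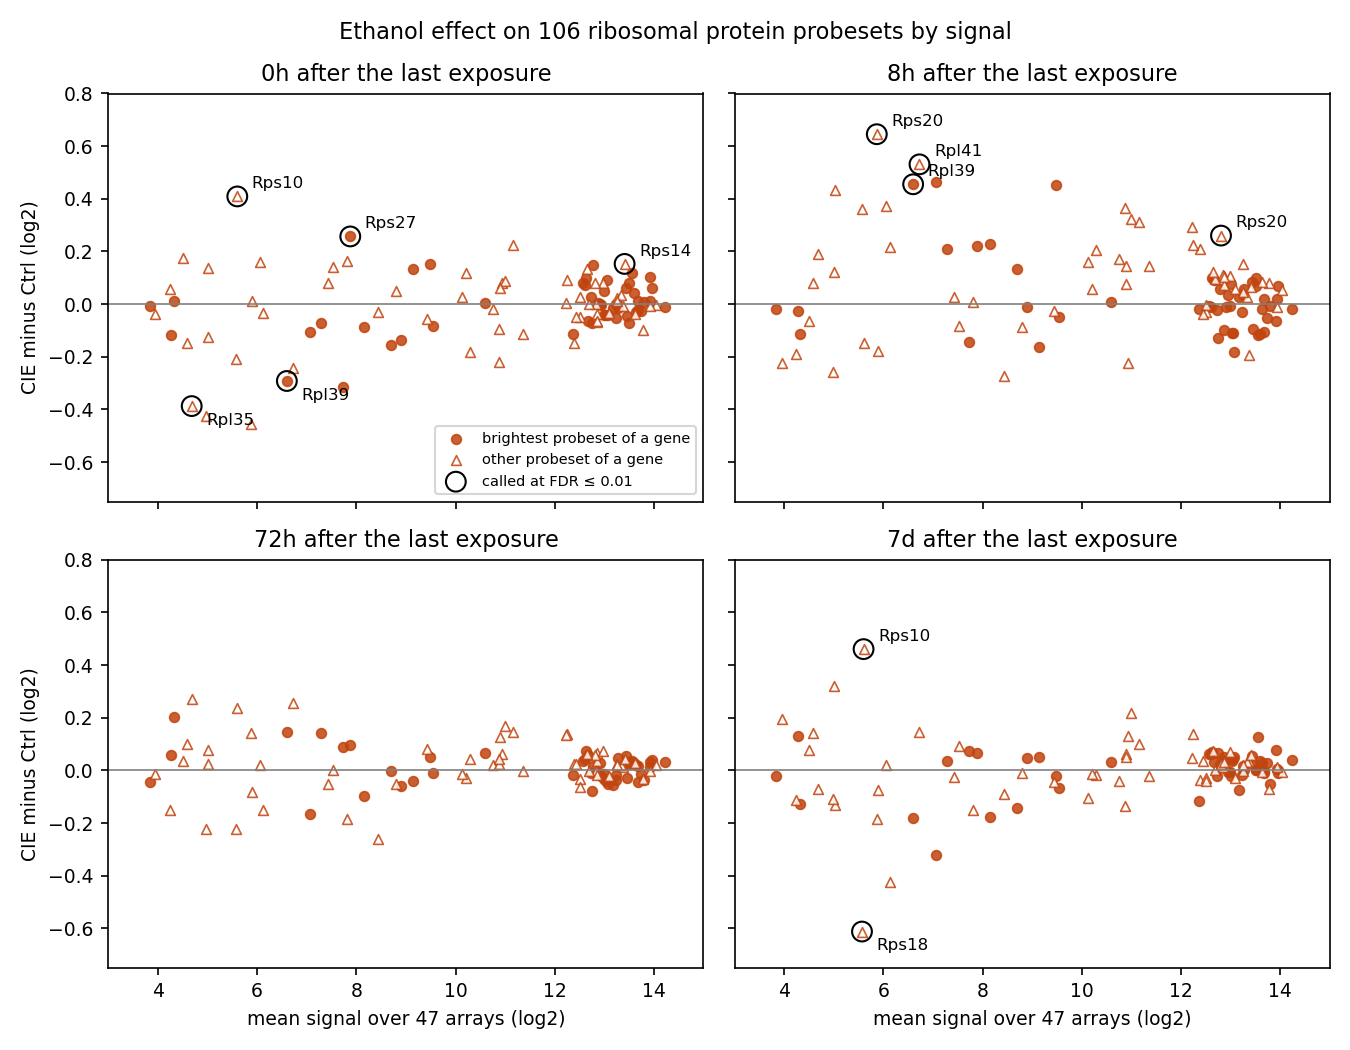
CIE minus Ctrl (log2) against the mean log2 signal over 47 arrays for the 106 member probesets at each time; filled circles are the brightest probeset of a gene, triangles the others, and black rings mark FDR ≤ 0.01. Ringed points lie at signals under 9, except those of Rps14 at 0h and Rps20 at 8h, and the points above 12 crowd around 0.

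**Figure D5:**
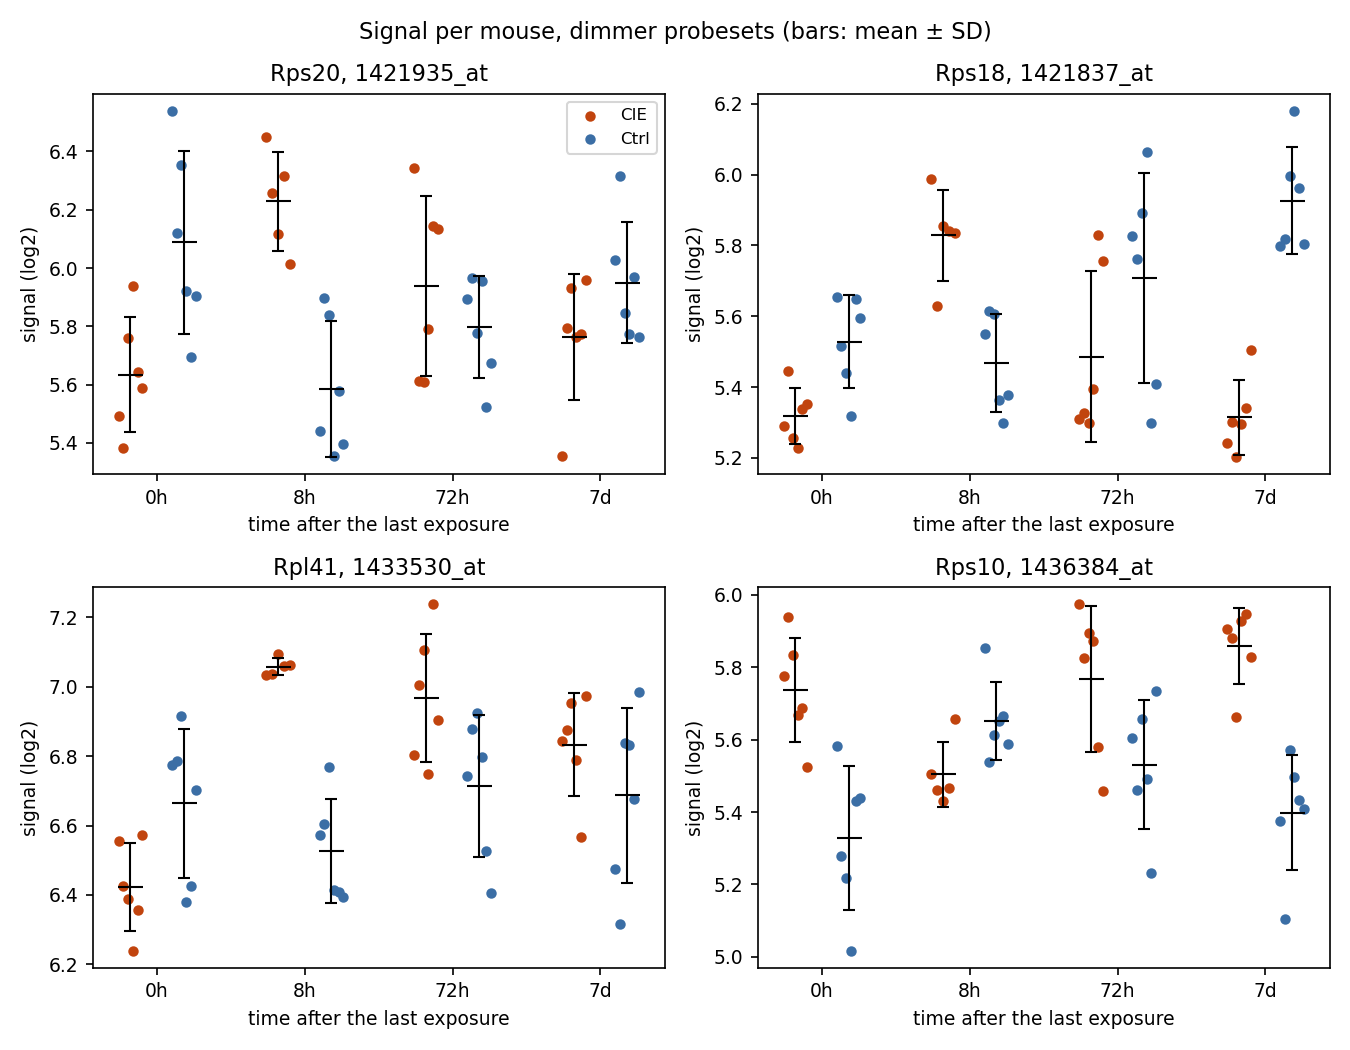
Log2 signal of the dim probesets of Rps20, Rpl41, Rps18 and Rps10 in each mouse (points) by time after the last exposure, CIE (red) left of Ctrl (blue), with mean ± SD. Rps20 and Rpl41 separate at 8h, and Rps18 and Rps10 separate at 7d in opposite directions.

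The genes around the ribosome were read from lists of their own, by the brightest probeset. Of 10 elongation factor genes 0 were called at any time (limma; 2 at 0h and 0 at 8h at an unadjusted p of 0.05 or less), with a median effect of 0.01 at 0h and 0.02 at 8h, and Fau, which encodes a further small subunit protein, had 0.05 and -0.08. Of 36 initiation factor and poly(A) binding genes 0 were called at 0h and 1 at 8h (2.78%), beside 7.28% and 3.39% of all probesets. It was Eif4ebp2, which encodes a repressor of translation that mTOR controls. At 8h it was 7.31 ± 0.28 in CIE and 6.85 ± 0.11 in Ctrl mice (SD, n = 5 and 6, adjusted p = 0.00506, limma). Of the 9 genes of p53 and ribosomal stress 1 was called at 8h, beside the same 3.39% of all probesets. It was Cdkn1a, a cell cycle inhibitor, with 9.52 ± 0.19 in CIE and 8.75 ± 0.22 in Ctrl mice (adjusted p = 0.00534, limma). At 72h and 7d no gene of any of the 9 lists was called (limma), and up to 7 genes of a list had an unadjusted p of 0.05 or less.

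Ribosome biogenesis genes, which act in the nucleolus, were called lower at 0h in 3 of 57 and higher in 0, with a median of -0.08. That is 5.26% called, beside 7.28% of all probesets in either direction and 3.58% lower. Heatr1, which acts in early processing of ribosomal RNA, was 8.07 ± 0.12 in CIE and 8.40 ± 0.13 in Ctrl mice (adjusted p = 2.81e-04), and Bysl (-0.32) and Polr1c (-0.27), a subunit of RNA polymerases I and III, were lower too. At 8h the 57 split into 2 higher and 2 lower: Ddx21, an RNA helicase of the nucleolus, was 8.19 ± 0.22 in CIE and 7.51 ± 0.21 in Ctrl mice (adjusted p = 8.92e-04) and Nol6 was higher by 0.42, whereas Polr1b (-0.41), of RNA polymerase I, and Rrp15 (-0.35) were lower. Mitochondrial ribosomal proteins had 6 of 76 called lower and 0 higher at 0h, with a median of -0.07. That is 7.89%, beside 7.28% of all probesets in either direction and 3.58% lower. The calls were led by Mrps22 (9.95 ± 0.09 in CIE and 10.29 ± 0.11 in Ctrl mice, adjusted p = 1.81e-04), Mrpl47 (-0.28), Mrpl21 (-0.32) and Mrpl36 (-0.26). At 8h they had 2 higher (Mrpl33 by 0.44 and Mrpl57 by 0.27) and 1 lower (Mrpl9 by -0.35). Cytosolic members had 1 higher and 1 lower of 50 at 0h, and the difference between the lists was not tested.

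Of 30 genes of the mTOR pathway and of the control of ribosomal protein mRNA, 4 were called higher and 2 lower at 0h, and 2 higher at 8h, which is 20% and 6.67% beside 7.28% and 3.39% of all probesets. Castor1, an arginine sensor that holds mTOR back, was 6.48 ± 0.20 in CIE and 6.10 ± 0.18 in Ctrl mice at 0h (adjusted p = 0.00123) and 6.36 ± 0.08 and 5.98 ± 0.18 at 8h (0.00330). Mlst8, a subunit of both mTOR complexes, was higher by 0.23 at 0h, and Mycn (-0.55) and Mnt (-0.19), factors that bind the sites of Myc, were lower. Rheb, which activates mTOR, was 12.92 ± 0.16 in CIE and 12.67 ± 0.07 in Ctrl mice at 8h (0.00137). Mtor (-0.03 at both times) and Larp1 (0.02 and 0.00) were not called. In 2 large complexes taken for comparison, proteasome subunits had 0 of 39 called at 0h and 8h (12 and 15 at an unadjusted p of 0.05 or less), and the respiratory chain 0 of 75 at 0h (13 at that p) and 3 lower at 8h (Uqcrfs1 by -0.24, Ndufs5 by -0.29 and Cycs by -0.32). All adjusted p values here are limma's. The calls of these lists depended on single mice and settings: 15 at 0h became 7 without CIE mouse 5, 6 with the striatal term and 1 with the arrays of that time alone. The 14 at 8h became 4 without CIE mouse 15, 6 without Ctrl mouse 66 or 75, 7 without Ctrl mouse 79 or CIE mouse 23, and 0 with the arrays of that time alone.

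The tissue was checked by its markers. Neuronal markers had log2 summed levels of 16.39 to 16.59 in CIE and 16.43 to 16.57 in Ctrl mice at 0h. Of the 12, 0 were called higher and 1 lower, beside 7.28% of all probesets called. Among the other lists at 0h, 1 of 9 endothelial markers was called lower. Of 6 blood and of 10 choroid plexus markers, 1 each was called higher and 1 each lower (limma). At 8h, when Rpl39 was higher, 0 of 12 neuronal, 0 of 10 astrocyte and 0 of 9 oligodendrocyte markers were called (limma). Of these, 5, 2 and 2 had an unadjusted p of 0.05 or less. At that time 1 of 9 microglial and 1 of 6 blood markers were called lower and 1 of 10 choroid plexus markers higher. These stand beside 3.39% of all probesets called at 8h. Markers of cortical layers had a median effect of 0.32 with 0 of 7 called (2 at that p), and summed levels of 13.26 to 13.63 in CIE and 13.12 to 13.34 in Ctrl mice. Striatal markers were higher in CIE mice in 4 of 10 at 8h and in 9 of 10 at 72h, when their summed level was 12.5 to 14.1 in CIE and 12.6 to 13.2 in Ctrl mice. At 72h 1 of 6 blood markers was called higher, beside 0.528% of all probesets called. The part of cell makeup in the ribosomal protein values was not tested beyond the striatal term.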

How the data were processed

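The authors deposited log2 signals per probeset for 47 arrays. The submitters' processing notes name RMA, and the study's methods add quantile normalization and a ComBat adjustment for repeat group in PFC. Their versions were not given in the sources used. ComBat on repeat group, which has its second level at 8h alone, can alter values at 8h. The values were used as deposited, with no filter, and 0 value columns were left out. Probesets of several symbols (932) or none (9160) named no gene. The 8 group means were estimated with limma 3.58.1 (R 4.3.3), with Benjamini-Hochberg adjustment over 45037 probesets and 39 residual degrees of freedom per probeset. The fit was tested on simulated data. Named genes were those called or of the 4 smallest p at a time, the extremes of signal and spread, paralog pairs, genes with another called probeset and, from other lists, up to 4 called genes each. Rpl11, Fau, Mtor and Larp1 were named after their values were seen. Members, lists and tests were chosen with earlier results of these data known. Start regions came from RefSeq with Python 3.11.15. Mice were housed singly per the methods; whether mice of a group shared an exposure chamber is not given in the sources used.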

Additional observations from a re-analysis of the deposited data

Results flagged for a closer look

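Of 106 groups of values checked for a mouse far from the others, 3 were singled out, where chance singles out about 1 in 20. Rpl39 in CIE mice at 0h had mouse 5 at 6.49, above the other mice by 0.858 of the range of the group. Rpl14 in CIE mice at 72h had mouse 3 at 7.61, by 0.636 of the range. Mycn in CIE mice at 0h had mouse 5 at 6.41, by 0.708 of the range. Without CIE mouse 5, the effect of Rpl39 at 0h was -0.31 and no longer called (adjusted p = 0.0114, limma).

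Effects that differed between times by the test of the difference were those of the brightest probesets of Rpl39 (8h minus 0h by 0.747 and 8h minus 7d by 0.637) and Rpl27a (8h minus 7d by 0.782). Among other probesets, 8h minus 0h was 1.10 for the dim one of Rps20, 0.772 for that of Rpl41, 0.569 for that of Rps18 and -0.557 for that of Rps10. For Rpl35 it was 0.577 (signal 4.68) and 0.357 (signal 12.38), and for Rpl13a 0.386 (signal 10.28) and 0.258 (signal 11.36). 8h minus 7d was 0.972 for the dim probeset of Rps18, 0.831 for that of Rps20 and -0.608 for that of Rps10, and 72h minus 0h was 0.660 for the dimmer probeset of Rpl35. The difference of Rps20 from 7d was lost without any of several mice (adjusted p up to 0.0156, limma). These differences share the 8h or 0h mice, so they are not independent of each other.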

How the results depend on the processing

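No paired analysis was possible because no mouse number occurs in more than 1 group. At 0h 2 members were called, against 0 with the arrays of that time alone or, chosen after seeing the data, striatal markers as a term, 1 with a mean-variance trend or with probesets above the median level alone, 4 at FDR 0.05, and 0 to 2 without a mouse. At 8h 1 was called, against 0 with repeat group 1 alone, 2 with probesets free of cross-hybridization suffixes, with the mean of all probesets or with repeat group as a term, 4 at FDR 0.05, 6 with array weights, and 1 to 2 without a mouse. For 8h minus 0h, 1 became 2 with the suffix-free probesets and 4 with array weights (1 to 2 without a mouse). For 8h minus 7d, 2 became 1 with repeat group 1 alone (1 to 2), and for 72h minus 0h, 0 became 0 to 1 without a mouse. The F test over the effects went to 8 with array weights (2 to 5 without a mouse), and the F test and the 8h minus 0h contrast of Ctrl mice to 1 (contrast 0 to 1 without a mouse). Genes of the other lists, with settings chosen after seeing the data, numbered 15 at 0h, against 1 with that time alone, 6 with the striatal term and 40 at FDR 0.05 (7 to 18 without a mouse). At 8h they numbered 14, against 26 with repeat group as a term or array weights, 6 with repeat group 1 alone, 0 with that time alone (21 calls among all probesets) and 37 at FDR 0.05 (4 to 19 without a mouse). At 7d they were 0, against 5 with array weights, 1 with a trend or the striatal term and 3 at FDR 0.05. Rpl22 at 0h turned to -0.0165 with its suffix-free probeset, and Rpl27 at 7d to 0.0547 with the mean of its probesets; the cause was not tested. The members' counts of 0 at 72h and 7d did not change under the other settings run. Their median effect lay between -0.04 and 0.03 in all 88 alternatives. Of 939 alternatives of single probesets, 785 kept side and direction. Whether signal or the number of mice limits the calls was not tested.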
